A study of Mus musculus with 8 samples.

Results

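Narrow accessible regions at the starts of protein-coding genes were examined in the ATAC-seq data of medullary thymic epithelial cells (mTECs). A region was taken when it lay on an autosome, was under 200 bases wide, and had its centre no more than 1000 bases before or 100 bases after a transcription start of exactly 1 protein-coding gene in the basic set of GENCODE M21. Of the 57124 regions of the series, 1290 met these conditions. They belonged to 1207 of the 20807 autosomal protein-coding genes. They made up 13.7% of the 9411 single-gene promoter regions of any width (95% Wilson interval 13.0 to 14.4). A further 28 narrow regions were left out because they lay at the starts of 2 or more protein-coding genes, and 64 because they lay on a sex chromosome.

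The study sorted mTECs of wild-type BL6N6 mice a few weeks old by the surface proteins Tspan8 and MHC class II, the first a marker of cells that express a given tissue-restricted antigen and the second a marker of maturation. The 8 samples formed 4 groups, Tspan8neg MHCIIlow, Tspan8pos MHCIIlow, Tspan8neg MHCIIhigh and Tspan8pos MHCIIhigh, with 2 biological replicates each. All were CD45-negative, Epcam-positive and CDR1-negative thymus cells. The regions are 1 merged set for all samples, so nothing below is a statement about a single group, and the read counts and the depth behind each region are not analysed here.

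ATAC-seq uses a transposase that cuts DNA where nucleosomes do not cover it. At the start of an active gene the transcription machinery and bound factors keep a stretch of DNA open. Many broadly used genes start within CpG islands, stretches rich in the dinucleotide CpG, while many genes of a single tissue start from CpG-poor sequence, some of them with a TATA box just before the start. mTECs transcribe many genes that are otherwise limited to one tissue, so that developing T cells meet those self-antigens in the thymus.

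The first sequences show members that covered a start with a TATA box before it. They are the parts of 5 such regions that lie upstream of the start, in the direction of the gene and up to its last base before the start, with the TATA box (TATAAA) in capitals. The genes encode the chemokine Ccl7, the neuronal RNA-binding protein Elavl3, the linker histone Hist1h1a, the core histone Hist1h3a and the intestinal antimicrobial lectin Reg3g. The first base of the box lay 30 bases upstream of the start in Ccl7, 33 in Elavl3, 31 in Hist1h1a, 31 in Hist1h3a and 29 in Reg3g.
Ccl7 (chr11:82045624-82045711, plus strand, mm10): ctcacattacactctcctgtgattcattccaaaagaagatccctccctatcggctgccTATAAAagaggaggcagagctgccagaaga
Elavl3 (chr9:22052024-22052117, minus strand, mm10): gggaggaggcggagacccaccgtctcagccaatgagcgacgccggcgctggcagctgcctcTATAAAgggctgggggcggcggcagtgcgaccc
Hist1h1a (chr13:23763548-23763665, plus strand, mm10): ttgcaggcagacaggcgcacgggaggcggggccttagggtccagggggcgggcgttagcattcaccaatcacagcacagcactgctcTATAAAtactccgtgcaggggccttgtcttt
Hist1h3a (chr13:23762387-23762499, minus strand, mm10): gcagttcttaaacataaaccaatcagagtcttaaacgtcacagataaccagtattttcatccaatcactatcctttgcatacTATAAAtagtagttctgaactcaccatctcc
Reg3g (chr6:78468873-78469060, minus strand, mm10): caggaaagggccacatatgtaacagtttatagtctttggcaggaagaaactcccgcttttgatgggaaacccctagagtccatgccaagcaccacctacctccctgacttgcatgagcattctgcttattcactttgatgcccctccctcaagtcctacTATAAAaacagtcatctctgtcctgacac

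Such a box was the exception. TATAAA on the strand of the gene, from 40 to 15 bases upstream of the nearest start, was found at 23 of the 1290 members, or 1.78% (1.19 to 2.66). The same search over all 39627 starts of autosomal protein-coding genes gave 1.84% (1.71 to 1.98). Single-gene promoter regions of 400 to under 800 bases had it at 0.874% (0.638 to 1.20) of their starts. Of the 561 members that covered a start, 9 had the box, at Ccl7, Elavl3, Hist1h1a, Hist1h3a and Reg3g above and at Krtdap, a keratinocyte differentiation protein, Neurl3, Ptp4a3 and Tph2, the neuronal enzyme of serotonin synthesis.

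A second set shows how far members differed in CpG content. The capitals mark CpG in the upstream parts of the regions of Calb1, a neuronal calcium-binding protein, Slc17a7, a vesicular glutamate transporter, Snap25, a protein of synaptic vesicle fusion, and Tspan8, the tetraspanin used for sorting. Calb1 held 5 such dinucleotides, Slc17a7 held 8, Snap25 held 7 and Tspan8 held 1.
Calb1 (chr4:15881185-15881263, plus strand, mm10): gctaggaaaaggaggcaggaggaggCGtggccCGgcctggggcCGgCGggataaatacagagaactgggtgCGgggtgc
Slc17a7 (chr7:45163861-45163948, plus strand, mm10): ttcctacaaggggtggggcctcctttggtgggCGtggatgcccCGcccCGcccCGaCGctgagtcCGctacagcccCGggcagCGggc
Snap25 (chr2:136713351-136713452, plus strand, mm10): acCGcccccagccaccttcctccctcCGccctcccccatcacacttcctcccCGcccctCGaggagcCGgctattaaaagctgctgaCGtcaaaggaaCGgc
Tspan8 (chr10:115817150-115817270, plus strand, mm10): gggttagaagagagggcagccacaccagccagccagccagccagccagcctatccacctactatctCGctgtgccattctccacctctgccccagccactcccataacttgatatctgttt

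The region of Ivl, which encodes involucrin of the cornified envelope and marks late mTECs, is shown for the AP-1 motif (TGANTCA), here in capitals. It held 0 CpG, and it ended 44 bases before the start.
Ivl (chr3:92573779-92573950, minus strand, mm10): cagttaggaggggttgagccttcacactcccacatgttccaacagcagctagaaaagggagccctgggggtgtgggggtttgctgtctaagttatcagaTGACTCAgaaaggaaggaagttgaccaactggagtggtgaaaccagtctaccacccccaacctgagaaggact

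To address which genes carried a narrow region, member genes were counted in 47 gene families defined by gene symbols. Of all autosomal protein-coding genes 5.80% had a narrow single-gene promoter region, and 45.4% had a promoter region of 200 bases or more. Among ion channel genes the share with a narrow region was 12.1% (25 of 206 genes, 95% Wilson interval 8.36 to 17.3), and among the signalling families of ligands and receptors it was 13.8% (48 of 349 genes, 10.5 to 17.8). Both intervals lay above the value for all genes. Sensory receptor genes had a narrow region at 0.265% (4 of 1508 genes, 0.103 to 0.680). Housekeeping families had one at 4.11% (23 of 560 genes, 2.75 to 6.09), while 71.2% of their genes had a wider region. Replication-dependent histones supplied 14 of these 23 genes, and the housekeeping families without them had a narrow region at 9 of 493 genes (1.83%, 0.963 to 3.43). No test over families was run, and genes that share a cluster are not independent.

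**Figure D1:**
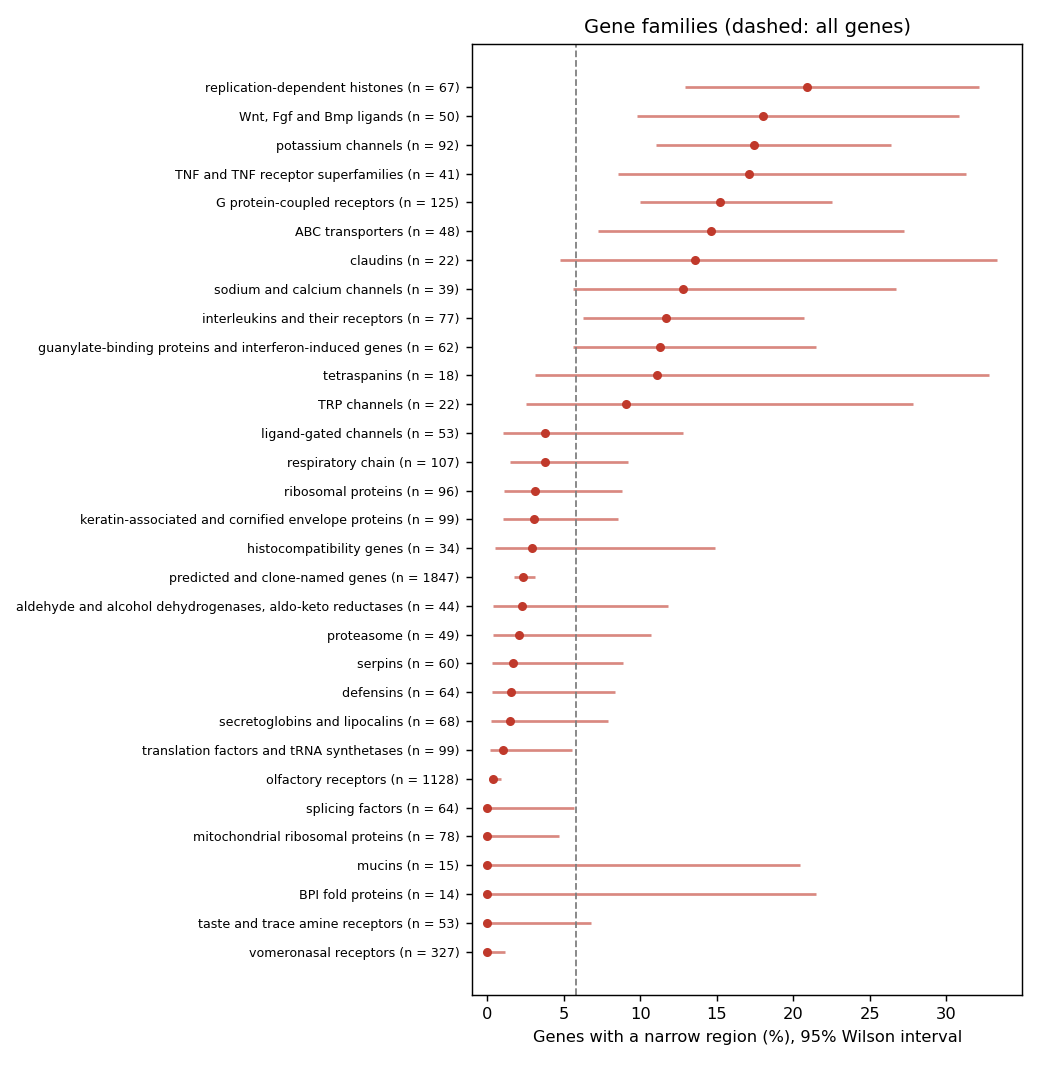
Share of autosomal genes with a narrow single-gene promoter region (x axis, percent) in each family at least 1.5 times above or below the share of all genes (dashed line, 5.80%), with 95% Wilson intervals and the number of genes. Replication-dependent histones (20.9%) stood at the top and families with no narrow region, such as splicing factors and mitochondrial ribosomal proteins, at the bottom.

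Replication-dependent histone genes, whose transcripts are made in S phase, had the highest share of the families. A narrow region was found at 14 of 67 genes (20.9%, 12.9 to 32.1), and 39 had a wider one. Of the 14 regions, 10 covered a start and 10 had a CpG ratio, the observed over the expected CpG count in the 200 bases around the centre, of at least 0.6. The centre of the Hist2h3b region lay 15 bases upstream of its start, that of Hist1h3d 20 bases upstream, that of Hist1h3b 30 bases downstream and that of Hist1h4n 33 bases downstream. The region of Hist1h3a had a GC content of 39.5% and that of Hist1h1a 51.5%. Histone genes occur in near-identical copies, and multimapping reads had been removed before peaks were called. Whether this affected the regions found at these genes was not tested.

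Among the ion channels, potassium channel genes and their interacting proteins had a narrow region at 16 of 92 genes (17.4%, 11.0 to 26.4). These 16 genes held 20 regions, of which 13 had a CpG ratio of at least 0.6, with a median of 0.659. Kcnn1, a calcium-activated channel, had a region of 199 bases with its centre 6 bases downstream of the start. Kcna1, Kcnk10, Kcnk12 and Kcnip3 had 2 narrow regions each. Sodium and calcium channel genes had a narrow region at 5 of 39 (12.8%, 5.60 to 26.7), namely Cacnb2, Scn2a, Scn3b, Cacna1a and Cacng7, and 0 of these 5 regions covered a start. Ligand-gated channels had a lower share, 2 of 53 genes (3.77%, 1.04 to 12.8), with the regions of Glra1 and Gabra5 both away from the start. Of 22 TRP channel genes, Trpm2 and Trpm5, the latter a cation channel of tuft and taste cells, had one.

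Ligand and receptor families differed among themselves in base composition. Wnt, Fgf and Bmp ligands had a narrow region at 9 of 50 genes (18%, 9.77 to 30.8), and 7 of the 9 regions had a CpG ratio of at least 0.6. They were those of Fgf5, Fgf22, Fgf18, Fgf9, Fgf15, Wnt7a and Wnt11, while Fgf1 (0.190) and Fgf14 (0.235) lay below. G protein-coupled receptors had one at 19 of 125 genes (15.2%, 9.95 to 22.5), among them the dopamine receptors Drd1 and Drd4, the serotonin receptors Htr1b and Htr6, and Gpr146, S1pr5 and Gpr158. The median CpG ratio of the 20 regions at these receptors was 0.578. Interleukins and their receptors had one at 9 of 77 genes (11.7%, 6.27 to 20.7), with a median CpG ratio of 0.135. Of these 9 regions 1 reached 0.6, that of Il10ra (0.760). The others were at Il1r2 (0.126), Il18 (0.284), Il17re (0.127), Il23r (0.128), Il1f6 (0.135), Il22ra1 (0.365), Il27 (0.222) and Il7 (0.0889).

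Genes named Tnf, Tnfsf, Tnfrsf or Tnfaip had a narrow region at 7 of 41 (17.1%, 8.53 to 31.3). Tnfsf11, which encodes RANKL, had a region of 77 bases with its centre 94 bases upstream, and Tnfrsf11b, which encodes the RANKL decoy receptor osteoprotegerin, a region of 104 bases with its centre 667 bases upstream. RANKL signalling is known to drive mTEC development. The other genes were Tnfaip8l3 with 2 regions, Tnfrsf19, Tnfrsf12a, Tnfrsf9 and Tnfaip8l2. Guanylate-binding and interferon-induced genes had a narrow region at 7 of 62 (11.3%, 5.58 to 21.5), namely Isg15, Ifi44, Irf5, Oas1g, Iigp1, Irf2 and Gbp2. None of those 7 regions had a CpG ratio of at least 0.6.

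Membrane families held smaller numbers. ABC transporters had a narrow region at 7 of 48 genes (14.6%, 7.25 to 27.2). They included Abca12, the lipid transporter of the skin barrier, and Abca4, the retinoid transporter of photoreceptors. Of 22 claudin genes 3 had one, Cldn11, Cldn9 and Cldn13. Among 18 tetraspanins it was Tspan8, with a region of 175 bases and its centre 34 bases upstream of the start, and Tspan1, with a region of 170 bases and its centre 35 bases upstream. Both regions covered the start, with CpG ratios of 0.299 for Tspan8 and 0.358 for Tspan1. The intervals of claudins (4.75 to 33.3) and tetraspanins (3.10 to 32.8) included the share of all genes.

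At the other end stood families with few accessible promoters and families whose promoters were wide. Olfactory receptors had a narrow region at 4 of 1128 genes (0.355%, 0.138 to 0.908) and a wider one at 3. The 4 were Olfr658, Olfr16, Olfr459 and Olfr175-ps1. Vomeronasal receptors had a narrow region at 0 of 327 genes, an upper bound of 1.16%. Predicted and clone-named genes had one at 43 of 1847 (2.33%, 1.73 to 3.12). By contrast, splicing factors had a narrow region at 0 of 64 genes and a wider one at 48, and mitochondrial ribosomal proteins at 0 of 78 and a wider one at 59. Translation factors and tRNA synthetases had a narrow region at 1 of 99 genes, Mars, and a wider one at 75. Proteasome genes had a narrow region at 1 of 49, Psmb5, which encodes a catalytic subunit. The symbol pattern for ribosomal proteins gave 3 of 96 genes, among them Rps6kl1, a kinase-like gene and not a ribosomal protein. Respiratory chain genes had a narrow region at 4 of 107, Ndufc2, Atp5j, Atp5g2 and Cox14.

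Whether narrow regions marked tissue-restricted genes was described with 14 lists of genes chosen as typical of 1 tissue each, 361 autosomal genes in all. A list of 40 housekeeping genes was set beside them. Ivl, Krt1 and Krt10 of the skin list are also on the list of mTEC genes described below. A narrow region was found at 17 of the 361 tissue-restricted genes (4.71%, 2.96 to 7.41), close to the share of all genes. A wider region was found at 20 (5.54%), against 45.4% of all genes. Thus of the 37 tissue-restricted genes with any promoter region, 17 had narrow regions only (45.9%, 31.0 to 61.6). Of the 10327 genes with any promoter region, 857 had single-gene narrow regions and no wider one (8.30%). Among the housekeeping genes 27 had a promoter region, and 0 of the 27 had narrow regions only, an upper bound of 12.5%.

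**Figure D2:**
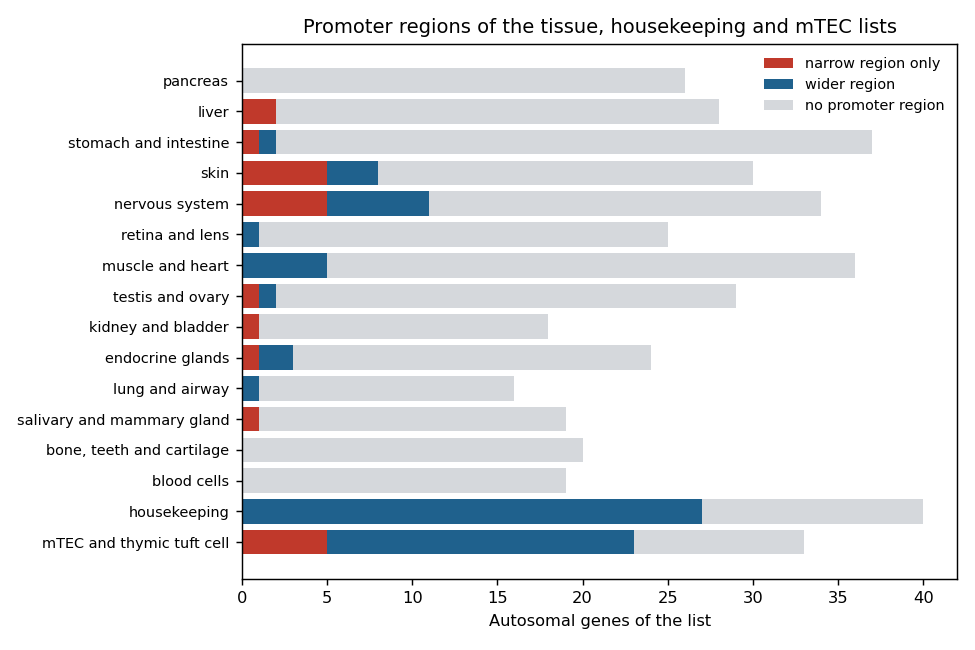
Number of autosomal genes (x axis) with narrow promoter regions only, with a wider promoter region and with no promoter region in each list of tissue-restricted, housekeeping and mTEC genes. Skin and nervous system held 5 narrow-only genes each, pancreas none, and the 27 housekeeping genes with a region all had a wider one.

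The 17 genes were unevenly spread over the tissues. Skin had 5 of 30 genes, Dsg1a, Ivl, Krtdap, Rptn and Sbsn, and the nervous system 5 of 34, Calb1, Npy, Slc17a7, Snap25 and Tph2. Liver had the apolipoprotein gene Apoa1 and the fibrinogen gene Fga of 28 genes. Intestine had Reg3g, testis and ovary the sperm surface protein gene Adam2, kidney and bladder the uroplakin gene Upk3a, the endocrine glands the growth hormone gene Gh, and the salivary and mammary glands the casein gene Csn2. The 26 pancreas, 36 muscle and heart, 25 retina and lens, 20 bone, teeth and cartilage, 19 blood cell and 16 lung and airway genes held none. Muscle and heart had wider regions at 5 genes, Actn2, Actn3, Mybpc2, Mylpf and Ryr2. The counts per tissue are small, and the interval for skin (7.34 to 33.6%) overlapped that for liver (1.98 to 22.6%).

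Nervous system genes differed in base composition from the rest of the tissue-restricted members. Of the 5 nervous system regions 4 had a CpG ratio of at least 0.6, at Calb1 (0.938), Npy (0.736), Snap25 (0.655) and Slc17a7 (0.649), with Tph2 at 0.419. Of the 13 regions of the other tissues 1 did, at Upk3a (0.618). The median was 0.655 for the nervous system and 0.200 for the other tissues. In the other tissues the ratio was 0 at Ivl, 0.0756 at Gh, 0.0800 at Dsg1a, 0.0964 at Reg3g, 0.200 at Rptn, 0.237 at Apoa1, 0.280 at Csn2, 0.299 at Adam2, 0.305 at Krtdap and 0.343 at Fga. This split was noticed after the values were seen and was not tested.

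Most of the 18 regions at tissue-restricted genes lay close to the start. The centre was within 200 bases of a start in 17, and 11 covered one. The region of Fga was 77 bases wide with its centre 3 bases upstream of the start, and that of Calb1 was 167 bases wide with its centre 4 bases downstream. The region of Csn2, on chromosome 5, covered the start with its centre 39 bases upstream, and the next region was 76432 bases away. The exception was Gh, at chr11:106302785-106302912, with its centre 983 bases upstream of the start. Sbsn, which encodes suprabasin of the skin, had regions of 90 and 78 bases of which the second starts 1 base after the end of the first in the coordinates as deposited.

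Genes that mark mTECs or thymic tuft cells were read in the same way, as a description. Of 33 such genes 23 had a promoter region (69.7%, 52.7 to 82.6), against 49.6% of all genes, and 18 had a wider one, among them Aire, the regulator of self-antigen expression, Foxn1, the thymic epithelial factor, Epcam, Cd80, Krt5 and the tuft cell factor Pou2f3. The other 10 had no promoter region, namely Ccl21a, Cd86, Elf5, Fezf2, Gnat3, Gp2, Il25, Klf1, Krt1 and Plcb2. A narrow region was found at 7 (21.2%, 10.7 to 37.8). Tspan8, Ivl, Ly6d, Avil and Trpm5 had narrow regions only. Avil, a tuft cell actin-binding protein, had a region of 198 bases over its start. That of Ly6d was 79 bases wide and ended 9 bases before the start, and that of Trpm5 was 72 bases wide with its centre 279 bases upstream. In Krt14 and Ehf the narrow region stood beside a wider one, with its centre 933 bases upstream in Krt14 and 785 bases upstream in Ehf. The nearest other region was 605 bases from the narrow region of Krt14 and 548 bases from that of Ehf. The 33 genes include Tspan8, Epcam and the MHC class II genes H2-Aa and H2-Ab1, whose proteins were used for sorting. They are therefore no independent check of the cell type.

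Narrow regions with and without a wider neighbour at the same gene were also compared. Of the 1207 genes, 857 had no promoter region of 200 bases or more (71.0%, 68.4 to 73.5), and 350 had one as well. In 68 of the 857 a wider region did cover a start but had its centre outside the promoter window. The 912 regions of the first genes covered a start in 51.9% (48.6 to 55.1) and had their next neighbour at a median of 5056 bases (quartiles 1033 and 15497). The 378 regions of the second covered a start in 23.3% (19.3 to 27.8) and had their next neighbour at a median of 564 bases (quartiles 358 and 1920). The second genes were set apart by a wider region in their own promoter window, and regions do not overlap. A closer neighbour and less cover of the start are therefore partly built into the grouping. The GC box was present around 40.9% (37.8 to 44.1) of the first and 25.4% (21.3 to 30.0) of the second. The centres of the first lay at a median of 62 bases from the nearest start and those of the second at 361 bases. Among all members the GC box share fell with this distance. It was 45.9% under 100 bases, 29.5% from 100 to under 500 bases and 19.2% at 500 bases or more. The first and second regions were not matched for distance, so whether the GC box difference goes beyond position was not tested.

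Most genes had 1 narrow region. A pair was found at 68 genes, 3 at each of 6 genes and 4 at 1 gene. Those with 3 were Ank3, Gcnt2, Nrg1, Spock3, St6gal1 and Traf1, named after their counts were seen. The regions of Nrg1, which encodes the growth factor neuregulin, lay on chromosome 8 at 32009209-32009284, 32883940-32884016 and 32884130-32884216. The latter pair had the same nearest start, on its 2 sides, and the other region lay at another start. Those of Spock3 were 79, 118 and 92 bases wide, and 2 of them had the same nearest start. The gene with 4 was the predicted gene Gm11168 at the low-coordinate end of chromosome 9, with its regions between bases 3002708 and 3004745. The study's methods name no filter for artefact regions, and whether reads at Gm11168 were placed correctly was not tested. The share of genes with a narrow region ranged from 5.01% on chromosome 19 to 6.69% on chromosome 9.

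Next, the position of narrow regions relative to the start was set beside that of wider ones, as a description. The window reaches 1000 bases upstream and 100 downstream of a start, so it favours upstream centres in every width class. The centre lay upstream of the nearest start in 79.5% of members (77.2 to 81.6), in 60.2% of regions of 200 to under 400 bases (58.1 to 62.2), in 53.6% of regions of 400 to under 800 bases (52.2 to 55.1) and in 69.9% of regions of 800 bases or more (67.6 to 72.0). The 100 bases before the start held 35.7% of member centres and the 100 bases after it 20.5%. In regions of 400 to under 800 bases these shares were 32.5% and 46.4%. Centres more than 500 bases upstream were frequent among members, with a share of 6.05% from 800 to 700 bases upstream against 0.529% for regions of 400 to under 800 bases. Wide regions have less room to lie far from a start without covering it, and a narrow region covers a start less often by its width alone, so the 43.5% of members that covered one (40.8 to 46.2) cannot be set against the 96.4% at 400 to under 800 bases.

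**Figure D3:**
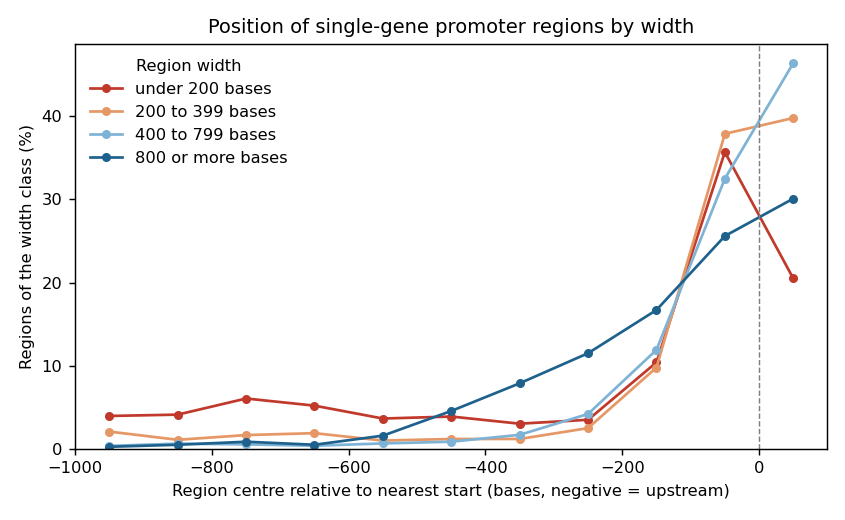
Share of single-gene promoter regions (y axis, percent of the width class) by distance of the region centre from the nearest start (x axis, bases, 100-base bins, negative values upstream), for 4 width classes. Narrow regions peaked in the 100 bases before the start (35.7%) and kept 3.02 to 6.05% per bin further than 300 bases upstream.

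The density of all narrow autosomal regions, members and others, was also computed. Promoter windows of single genes made up 28.9 Mb of the 2396 Mb of known autosomal bases. Inside them there were 44.6 narrow regions per Mb and in the rest of the autosomes 10.7, a ratio of 4.19. For regions of 200 bases or more the ratio was 31.2, from 281 and 9.0 per Mb. Of the members 51.1% (48.4 to 53.8) overlapped an exon and 8.76% (7.34 to 10.4) a coding sequence. Repeats made up 50% or more of the 200-base window of 1.94% (1.32 to 2.85) of them.

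Base composition was measured in the 200 bases around each centre, so that all regions were read over the same length. Members had a median width of 126 bases (quartiles 95.2 and 163), so part of each of their windows lay outside the region. Windows of regions of 200 bases or more lay inside the region. The median GC content of members was 59% (quartiles 52 and 66), below that of regions of 200 to under 400 bases (64.5%), of 400 to under 800 bases (68%) and of 800 bases or more (70.5%). Narrow autosomal regions with their centre in the promoter window of no gene of the basic set, coding or noncoding, are called distal here. Starts found only in the comprehensive annotation were not considered for this. The median GC content of members was above that of these 24474 regions (50.5%, quartiles 46.5 and 55). The CpG ratio followed the same order, with medians of 0.490 in members, 0.737, 0.873 and 0.903 in the wider classes and 0.228 in distal narrow regions. A ratio of at least 0.6 was reached by 38.1% of members (35.5 to 40.7), 86.6% of regions of 400 to under 800 bases (85.6 to 87.6) and 6.26% of distal narrow regions (5.96 to 6.57).

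**Figure D4:**
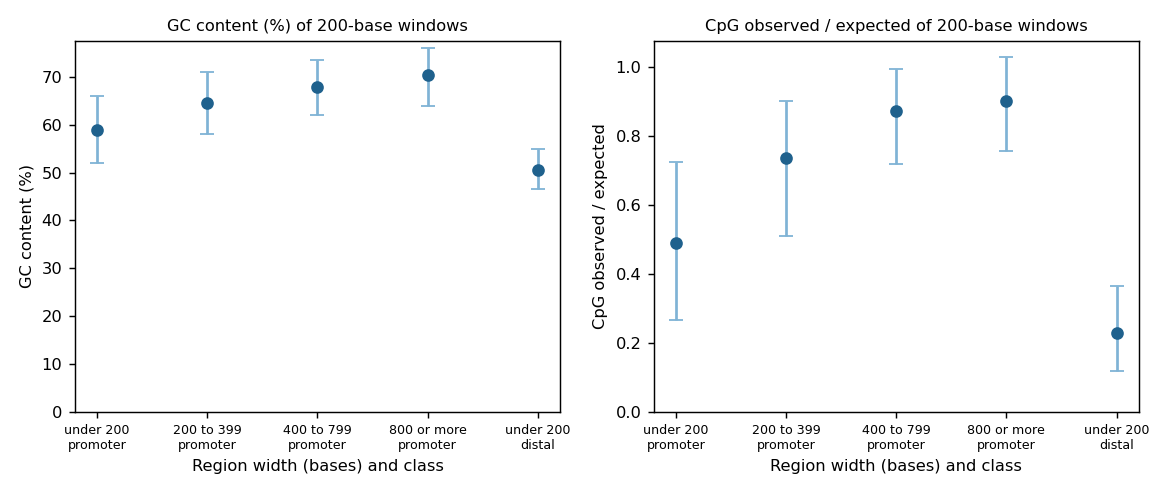
GC content (left, percent) and observed over expected CpG (right) of the 200 bases around the region centre in 4 width classes of single-gene promoter regions and in distal regions under 200 bases. Points are medians and bars the quartiles, and narrow promoter regions (59% and 0.490) lay between wider promoter regions and distal narrow regions (50.5% and 0.228).

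The difference from wider regions was present at each distance from the start. Of members with a centre less than 100 bases from the start, 44.3% of 725 reached a CpG ratio of 0.6, against 85.9% of 5954 wider regions at that distance. From 100 to under 500 bases the shares were 36.6% of 268 members and 73.9% of 1833 wider regions. At 500 bases or more they were 24.2% of 297 members and 57.5% of 334 wider regions. The 561 members over a start had a median GC content of 61.5% and the 729 away from one 56.5%.

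Short motifs were then searched on both strands of the same windows. The GC box (GGGCGG, bound by Sp and Klf factors) was present in 36.4% of members (33.8 to 39.0), in 54.5%, 64.5% and 68.2% of the wider classes in order of width, and in 8.41% of distal narrow regions (8.07 to 8.76). Among all 55917 autosomal regions it was 21.7%. The ETS motif (CCGGAAG, which contains the ETS core GGAA) was present in 4.81% of members (3.77 to 6.11), in 11.1%, 14.4% and 8.31% of the wider classes, in 1.5% of distal narrow regions (1.36 to 1.66) and in 3.83% of all regions. The shorter core GGAA alone was present in most windows, 84.6% of members, 84.6%, 82.5% and 80.4% of the wider classes and 90.5% of distal narrow regions. Ehf and Elf3, ETS factors studied in these cells, belong to the family that reads such motifs. The CCAAT box was present in 22.6% of members (20.4 to 25), in 27.1%, 26.0% and 21.0% of the wider classes in order of width, in 21.6% of distal narrow regions (21.1 to 22.1) and in 22.2% of all regions.

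The AP-1 motif ran the other way. It was present in 10.7% of members (9.13 to 12.5), in 6.59% of regions of 200 to under 400 bases (5.61 to 7.72), 2.58% of those of 400 to under 800 bases (2.15 to 3.09) and 1.64% of 800 bases or more (1.13 to 2.37), and in 22.8% of distal narrow regions (22.3 to 23.4). Among all autosomal regions it was 18.6%. The E-box (CANNTG) was present in 58.7% of members (56.0 to 61.3), in 35.3% of the widest class and in 74.3% of distal narrow regions, against 66.2% of all regions. TATAAA anywhere in the window was present in 4.73% of members (3.70 to 6.03), 2.23% of regions of 400 to under 800 bases (1.83 to 2.72), 6.67% of distal narrow regions and 5.96% of all regions.

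**Figure D5:**
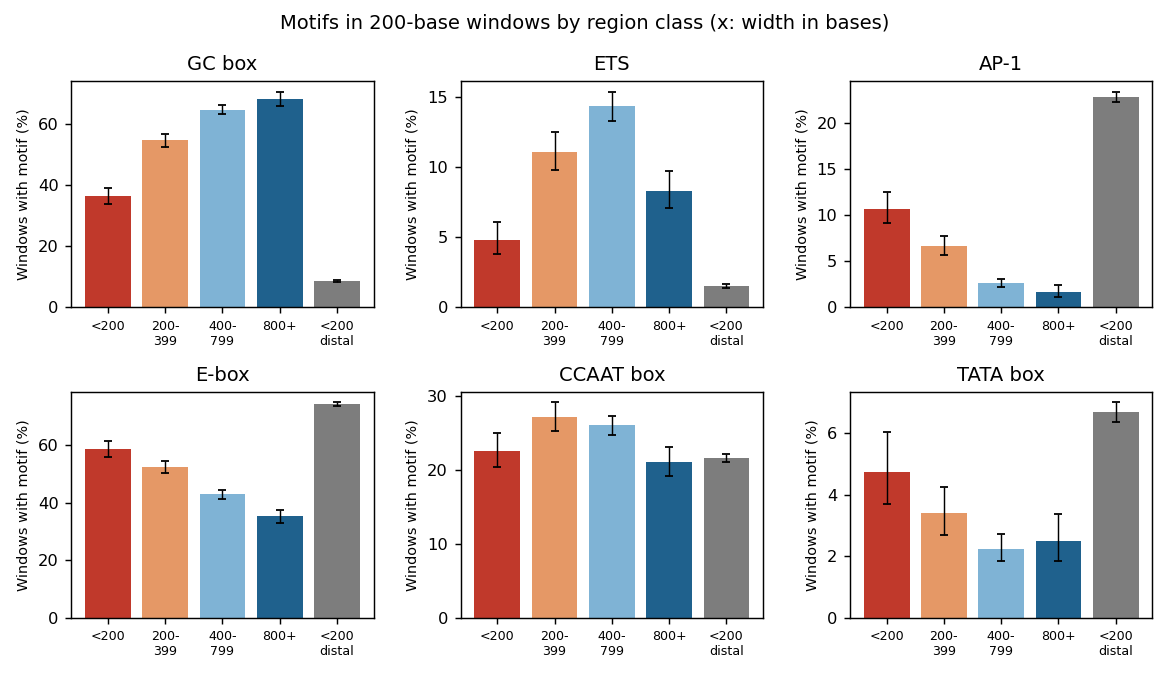
Share of 200-base windows (y axis, percent, each panel with its own scale from 0) that hold each of 6 motifs, in 4 width classes of single-gene promoter regions and in distal regions under 200 bases, with 95% Wilson intervals. The GC box rose from 36.4 to 68.2% with promoter width and the AP-1 motif fell from 10.7 to 1.64%.

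Because the motifs differ in base content, their shares were also read within bands of GC content. The bands do not match the regions for CpG ratio, and the GC box and the ETS motif each contain a CpG. Between 50 and 60% GC the AP-1 motif was present in 15.7% of 471 members (12.7 to 19.3), 8.13% of 1390 wider promoter regions (6.81 to 9.68) and 20.8% of 11665 distal narrow regions (20 to 21.5). Between 60 and 70% GC these shares were 4.88% of 389 members (3.15 to 7.5), 2.68% of wider promoter regions (2.17 to 3.31) and 8.61% of distal narrow regions (7.39 to 10.0). The GC box was present in 18.5% of members (15.2 to 22.2) and 31.4% of wider promoter regions (29.0 to 33.9) between 50 and 60% GC. Below 50% GC its shares were 5.26% (3.04 to 8.97) and 12.9% (9.62 to 17.1). At 70% GC or more they were 78.7% (72.6 to 83.8) and 82.9% (81.5 to 84.1), with overlapping intervals. Between 60 and 70% GC the GC box was present in 54.2% of members (49.3 to 59.1), 60% of wider promoter regions (58.2 to 61.7) and 31.0% of distal narrow regions (28.9 to 33.2). The CCAAT box was present in 18% of members (14.5 to 22.1) and 29.8% of wider promoter regions (28.2 to 31.4) in that band, and in 27.6% (23.8 to 31.8) and 37.6% (35.1 to 40.2) between 50 and 60% GC. Below 50% GC its shares were 29.4% (23.9 to 35.6) and 32.9% (27.9 to 38.3), with overlapping intervals. The intervals also overlapped at 70% GC or more, with 12.4% (8.53 to 17.6) and 15.2% (14.0 to 16.4). TATAAA was present in 4.67% of members (3.10 to 6.97) and 4.60% of wider promoter regions (3.62 to 5.84) between 50 and 60% GC, and in 9.65% (6.46 to 14.2) and 11.6% (8.51 to 15.7) below 50% GC, with overlapping intervals in both bands. Between 60 and 70% GC the ETS motif was present in 6.43% of members (4.39 to 9.31) and in 16.1% of wider promoter regions (14.8 to 17.4). Below 50% GC the AP-1 intervals of members (14.3 to 24.4) and wider promoter regions (9.90 to 17.5) overlapped. At 70% GC or more the AP-1 shares were 0.990% (0.272 to 3.54) and 1.26% (0.936 to 1.70), again with overlapping intervals. A match is a run of letters and does not show that a factor was bound.

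Regions on either side of the width limit are given as a description, with no test. The 84 members of 190 to 199 bases had a median GC content of 62.5%, and 60.7% of them covered a start. The 98 regions of 200 to 209 bases had a median GC content of 61.2%, and 67.3% covered a start. Just inside were Kcnn1 and Sp9 at 199 bases, and just outside Cav1 and H2-Q6 at 200 bases. At the narrow end, the regions of Car12, Dgki, Sstr3 and Zbtb7c were 67 bases wide, the smallest width among members. Width depends on the peak caller, on merging and on the reads available, and the part of each in these values was not tested.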

How the data were processed

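ATAC-seq reads were, per the study's methods, aligned to mm10 with Bowtie2, filtered with SAMtools, and freed of duplicates with Picard. MACS2 called broad peaks, and bedtools merged them into consensus regions; the methods do not say whether the peaks came from single or pooled samples. Per the file headers, featureCounts 2.0.3 counted reads over the regions. The start, end and width of each region, in bases, were used. The 8 columns of per-sample counts match no sample label and were not used, so no depth, error between replicates or comparison of groups is given.

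Regions were placed against GENCODE M21 starts and read from the GRCm38 reference. In 19 neighbouring pairs 1 region started 1 base after the other ended, although merging joins adjoining regions, so starts may be 1 base too low. Shares have 95% Wilson intervals, which cover counting error only. Genes named were those on the gene lists, up to 8 nearest to a start in families at least 1.5 times above or below the share of all genes, those at the width limits, and those with a TATA box over a covered start; a few others were chosen after their values were seen. Members, lists and families were chosen with earlier results of these data known. Functions were tested on simulated data. Tools were pysam 0.24.0, pandas 2.3.3, numpy 2.4.6, scipy 1.17.1 and matplotlib 3.10.9 under Python 3.11.15.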

Additional observations from a re-analysis of the deposited data

How the results depend on the processing

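The values were recomputed under 11 other settings, 1 of them chosen after seeing the data, which gave 74 values. Of these, 50 stayed within 1.5 times the count or within the 95% interval of the share or median given above, and 24 did not. A width limit of 100 bases gave 378 regions at 370 genes, 4.02% of single-gene promoter regions, with 56.2% of genes having no wider region and 1.11% of tissue-restricted genes (4 of 361) having a narrow one. A limit of 300 bases gave 2254 regions at 2061 genes, 24% of single-gene promoter regions, a median GC content of 60.5% and 78.9% of genes with no wider region. A window that began 500 bases upstream gave 11.4%, a GC content of 60% and 81.4% of genes with no wider region. Requiring overlap with the start gave 573 regions at 563 genes, 5.48%, a GC content of 61.5% and 85.1%. The comprehensive annotation gave 1968 regions, 16.8%, a GC content of 57.5% and 51.0%. Leaving out regions near noncoding genes gave 14.4% of single-gene promoter regions. GC content within the region itself had a median of 60.4%. These shifts follow from the changed choice of regions or sequence. The share with a TATA box (1.32 to 2.09%) and the share of housekeeping genes with a narrow region (0 to 5%) stayed within their intervals under each setting tried, and so did the share of tissue-restricted genes except at the limit of 100 bases. Narrowing each width by 1 base, for starts that may be 1 base low, gave 1301 regions. No paired analysis was possible because read counts matching no sample label were left out, so replicate numbers could not be used. Depth, which limits how wide a region is called, is not analysed here.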

Other observations

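Several families lay near the share of all genes. Zinc finger genes had a narrow region at 25 of 457 (5.47%) and a wider one at 291. Solute carriers had a narrow region at 25 of 372 (6.72%) and a wider one at 158. Among developmental transcription factors, a narrow region was found at 3 of 39 Hox genes and at 4 of 59 Fox and Sox genes, and at 3 of 45 genes of the KLF and ETS families. Chemokines and their receptors had one at 4 of 56, keratins at 2 of 49 and cadherins and protocadherins at 6 of 90. Kallikreins and trypsin-like proteases had a narrow region at 6 of 92 genes and a wider one at 6, while cytochromes P450 had a narrow one at 5 of 99 and a wider one at 15.

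The share of genes with a TATA box at any of their starts was also read by promoter class. It was 4.85% of 10480 genes with no region (95% Wilson interval 4.45 to 5.28), 2.68% of the 857 genes with narrow regions only (1.79 to 3.99), 3.14% of the 350 with narrow and wider regions (1.76 to 5.54) and 1.39% of the 9095 with wider regions only (1.16 to 1.65). The interval of the genes with both kinds included the value of the genes with no region, and no test was run. A gene with more annotated starts has more places where a box can be found. The classes were not matched for the number of starts.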
